A study of Mus musculus with 26 samples.

Results

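The mitochondrial ribosomal protein genes are the nuclear genes named Mrpl and Mrps. They were taken as every gene row of the count files whose symbol begins with Mrpl or Mrps followed by a digit, which gave 69 of 19549 rows. Of these, 43 were Mrpl genes, named for the large subunit, and 26 were Mrps genes, named for the small subunit. A further 8 rows that join a member with an overlapping neighbour under one name (Mrps23, Mrpl19, Mrps25, Mrpl53, Mrps6, Mrpl24, Mrpl41 and Mrpl49) were left out. All 69 members had counts in every library and passed the filter on low counts in every fit.

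Macrophages were sorted from 13 mammary tumours that grew in female FVB mice, aged 5 to 7 weeks when PyMT cells, mammary tumour cells driven by polyoma middle T antigen, were placed in a mammary gland by injection. The gate took CD11b+ F4/80+ Ly6G- cells, and sorted cells were held in cycloheximide, which stalls ribosomes on mRNA. Every group shares this background, and none was left without a tumour. From each sorted population about 10% of the cells gave a total mRNA library, and the rest gave a library of polysome mRNA, the mRNA bound by 3 or more ribosomes on a sucrose gradient, so that 26 SmartSeq2 libraries were made. By weight, 5 tumours were large (1504 to 2245 mg) and 8 were small (467 to 841.8 mg); no tumour lay between, and the limit of 1000 mg was placed in that gap. Batch 2, as labelled, held 3 large tumours (replicates 3 to 5, titled LR) and 3 small tumours (replicates 6 to 8, titled ER), and batch 1 held 2 large and 5 small tumours. The labels do not explain LR and ER, and in batch 2 these names and the size class cannot be told apart.

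The mitochondrial ribosome translates the few mRNAs of the mitochondrial genome, which encode membrane subunits of the respiratory chain and of ATP synthase. Its RNA comes from the mitochondrial genome, but its proteins are encoded in the nucleus, translated by cytosolic ribosomes and imported. Mrpl and Mrps mRNA on polysomes therefore concerns cytosolic translation of these proteins, not translation inside mitochondria. Some members descend from bacterial ribosomal proteins and others are found in mitochondria alone.

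Promoters of genes of the mitochondrial machinery are known for sites of nuclear respiratory factor 1 (NRF1), of ETS factors such as GABP (also called NRF2) and of YY1. The RefSeq promoter table (build GRCm38.p6), which runs from 250 bases before to 50 bases after each start, held 61 of the 69 members. The stretches below are those of the 6 members, among the 12 named below for the largest polysome folds, in which a motif fell between 110 bases before the start and 30 bases from it. The upper 3 belong to members called higher on polysomes and the lower 3 to members called lower. Capitals mark matches on either strand to GCGCANGC for NRF1 or CCGGAAG for ETS factors.
Mrpl22, chr11:58171554-58171693, plus strand: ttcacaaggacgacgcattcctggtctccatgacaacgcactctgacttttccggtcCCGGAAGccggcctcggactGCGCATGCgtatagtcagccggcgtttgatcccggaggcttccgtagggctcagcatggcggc
Mrpl14, chr17:45686239-45686378, plus strand: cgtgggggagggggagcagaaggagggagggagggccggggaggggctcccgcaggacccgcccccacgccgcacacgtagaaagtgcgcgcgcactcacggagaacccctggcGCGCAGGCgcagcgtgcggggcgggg
Mrps21, chr3:95871485-95871624, minus strand: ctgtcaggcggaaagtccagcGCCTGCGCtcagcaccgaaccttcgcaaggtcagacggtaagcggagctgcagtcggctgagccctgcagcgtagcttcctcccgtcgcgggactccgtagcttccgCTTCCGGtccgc
Mrps22, chr9:98601650-98601789, minus strand: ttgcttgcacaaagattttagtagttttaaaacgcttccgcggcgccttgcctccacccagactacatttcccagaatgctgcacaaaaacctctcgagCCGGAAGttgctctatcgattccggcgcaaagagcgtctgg
Mrpl3, chr9:105053158-105053297, plus strand: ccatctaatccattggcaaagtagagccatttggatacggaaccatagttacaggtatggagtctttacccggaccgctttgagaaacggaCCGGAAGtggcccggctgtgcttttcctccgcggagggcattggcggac
Mrpl30, chr1:37890367-37890506, plus strand: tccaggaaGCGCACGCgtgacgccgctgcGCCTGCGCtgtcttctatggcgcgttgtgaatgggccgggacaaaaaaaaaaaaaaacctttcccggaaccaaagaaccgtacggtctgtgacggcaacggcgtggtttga

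Over the whole windows of 300 bases the NRF1 letters were found in 20 of 61 member promoters (32.8%), against 19.9% of the 8786 promoters of genes tested and 10.1% of all 27025 promoters. The ETS letters were found in 22 (36.1%), against 17.6% of genes tested and 9.12% of all promoters. AAGATGGCG, the YY1 letters, stood in 8 (13.1%), against 3.14% and 1.49%. Related sets had shares near those of the members for some motifs and not for others. In 29 promoters of complex I subunits the NRF1, ETS and YY1 letters stood in 31%, 13.8% and 17.2%. In 57 promoters of cytosolic ribosomal proteins they stood in 15.8%, 33.3% and 5.26%. At least 1 of these motifs was present in 41 member promoters (67.2%), against 35.4% of genes tested and 18.4% of all, and no matches overlapped. A C followed by 4 pyrimidines exactly at the annotated start, the mark of mRNAs with a terminal oligopyrimidine tract, was found in 0 of 61 members, against 10 of 57 cytosolic ribosomal protein promoters (17.5%), 2.17% of genes tested and 2.49% of all promoters. Anywhere in 15 bases around the start the same letters stood in 15 members (24.6%), against 42.1% of the cytosolic ribosomal protein promoters and 20% of genes tested. A match describes letters and is not evidence of a bound factor, and the annotated start need not be the one used in these cells. Mrpl46 and Mrps11, a large and a small subunit gene, lie head to head on chromosome 7, with 42 bases between their starts in the promoter table. In the GENCODE annotation they overlap: Mrpl46, on the minus strand, reaches to 78783531, and Mrps11, on the plus strand, begins at 78783119. Reads in that overlap could be counted for either gene where strand is not used.

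The libraries and the cells were looked at before the members. Total counts ran between 7034173 and 28257436 in polysome libraries and between 18018519 and 55609113 in total mRNA libraries. The lowest count of any member was 1 to 108 in polysome libraries and 70 to 1039 in total mRNA libraries, so that low members are least certain on polysomes. All 8 macrophage markers were present in every library. Ly6g, used to exclude neutrophils, had no count in 10 of 13 polysome and 9 of 13 total mRNA libraries. Other neutrophil markers were seen more often. Csf3r had counts in every library, with a median of 119.7 CPM on polysomes and 70.2 CPM in total mRNA. S100a8 and S100a9 each had no count in 3 polysome libraries and reached 37.5 and 25.6 CPM there. Cxcr2 had no count in 6 polysome libraries and reached 4.59 CPM. Small replicate 7 stood apart, with macrophage markers summing to 2864 CPM (counts scaled by library size) on polysomes and 11258 CPM in total mRNA, while fibroblast markers summed to 2480 and 3075 CPM there and tumour epithelium markers to 861 and 3880 CPM, the highest sums of all tumours. Small replicate 1 came next for fibroblast markers, with 630 and 2100 CPM. The total mRNA libraries of small replicates 6 and 7 and large replicate 3 stood apart in the share of Lars2, 0.00304 to 0.00658% against 0.0502 to 0.902% in the other 10. In such bulk samples fewer cells of a type and less RNA per cell cannot be told apart.

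On polysomes the members made up 0.153 to 0.531% of all counts, and in total mRNA 0.294 to 0.567%. Per kilobase of annotated exon, the highest median total mRNA levels were those of Mrpl52 (176 CPM per kb), Mrps21 (155 CPM per kb) and Mrpl33 (123 CPM per kb). All 3 have short annotated exon length. The lowest were those of Mrpl1 (4.46 CPM per kb), Mrpl47 (5.31 CPM per kb) and Mrps5 (5.49 CPM per kb), whose annotated exons run to several kilobases. The order depends on those lengths, since exons that are annotated but unused lower the value. Over 13 total mRNA libraries Mrpl52 ranged between 133 and 277 CPM per kb and Mrpl1 between 0.468 and 7.11 CPM per kb, without overlap, whereas the ranges of Mrpl52 and Mrps21 (104 to 287 CPM per kb) overlapped. Within batches, the median correlation between pairs of members over 13 tumours was 0.319 on polysomes, 0.389 in total mRNA and 0.274 for the difference, as a description of points that share libraries and depth.

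Polysome mRNA was compared with total mRNA of the same tumours, which asks how far each mRNA was carried on several ribosomes relative to the average mRNA. The members split. With edgeR's quasi-likelihood test and Benjamini-Hochberg adjustment, 10 of 69 were called higher on polysomes and 31 lower at an adjusted p below 0.05, and 28 were not called. Among all 12109 genes tested 22.6% were called higher and 34.0% lower, against 14.5% and 44.9% of the members. The median log2 fold was -0.42 over the members and -0.34 over all genes. Of the large subunit genes 7 of 43 were called higher and 18 lower (median -0.26), and of the small subunit genes 3 of 26 were called higher and 13 lower (median -0.51). Names and place do not fully match: Mrps18a and Mrps30 are located in the large subunit of the mammalian structure, and Mrps36 has since been assigned to a metabolic complex.

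**Figure D1:**
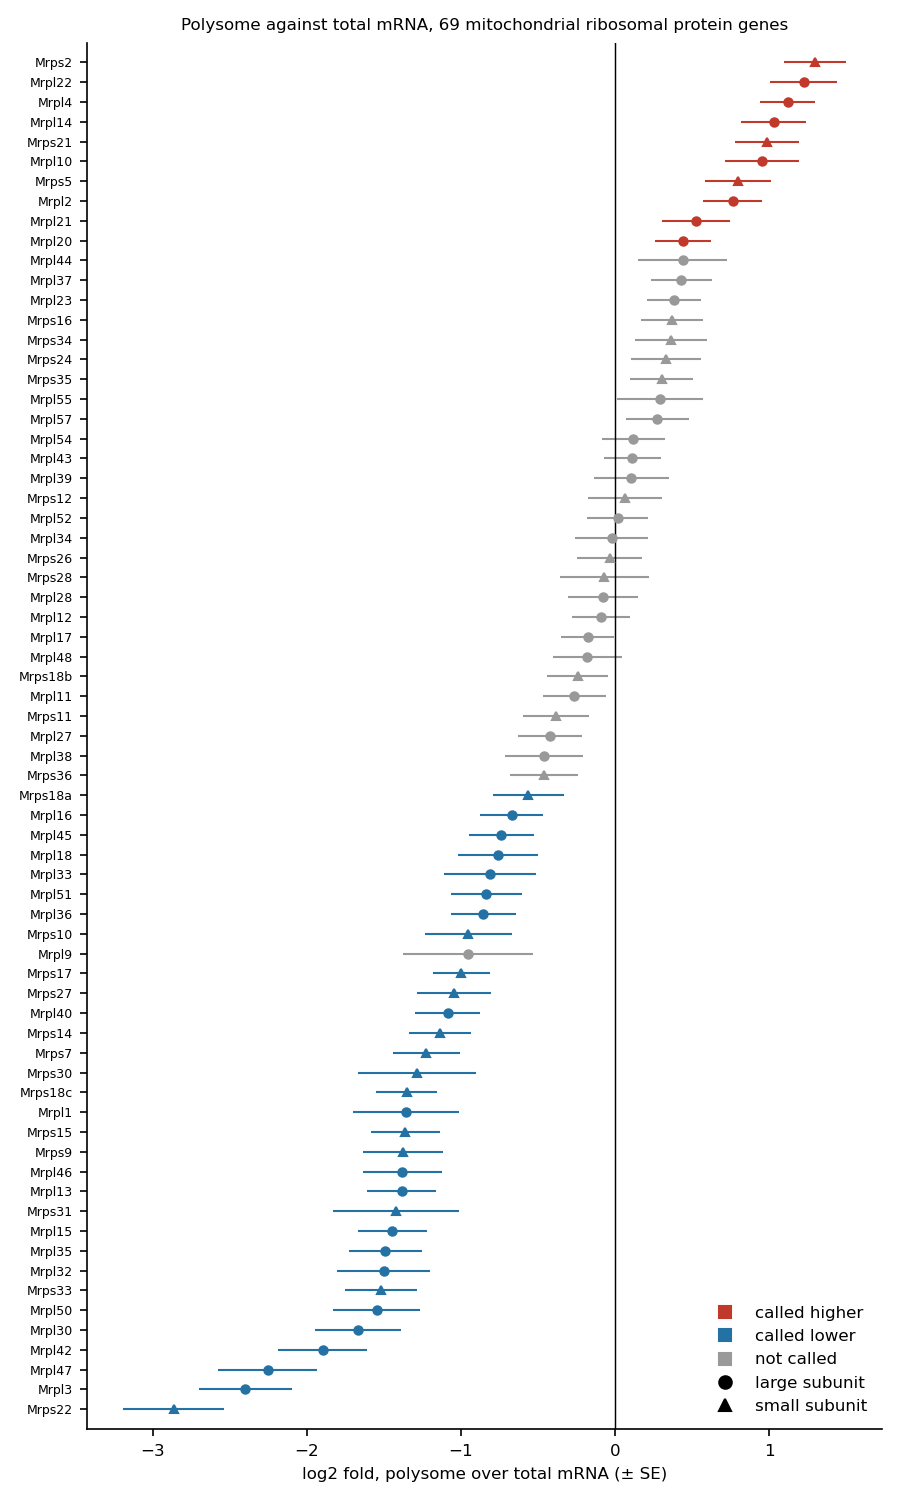
Log2 fold of polysome over total mRNA (x axis, points with bars of 1 SE) for each of the 69 members (y axis, ordered by fold), from the fit over 26 libraries; circles are Mrpl and triangles Mrps genes, and colours give the call. The 10 members called higher lie between 0.44 and 1.30, and 31 are called lower, down to -2.87 for Mrps22.

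Of the members called higher, Mrps2, a small subunit protein of bacterial descent, had the largest fold. Mrps2 had 29.8, 93.0 and 163 CPM (lowest, median and highest of 13) on polysomes, against 24.3, 40.0 and 51.3 CPM in total mRNA. It was higher on polysomes in 13 of 13 tumours, as no other member called higher was, by 1.30 ± 0.20 on the log2 scale (SE; edgeR quasi-likelihood, adjusted p = 5.45e-06). Mrpl22 and Mrpl4, whose proteins line the tunnel through which the new chain leaves, followed. Mrpl22 had 19.1, 45.7 and 129.7 CPM on polysomes, against 10.9, 20.7 and 30.3 CPM in total mRNA, and was higher in 12 of 13 tumours by 1.23 ± 0.22 (edgeR adjusted p = 3.71e-05). Mrpl4 had 85.3, 176 and 406.1 CPM on polysomes, against 58.4, 86.7 and 109.5 CPM in total mRNA, and was higher in 12 of 13 tumours by 1.12 ± 0.18 (edgeR adjusted p = 1.01e-05). Large replicate 2 gave the highest polysome level of both. Mrpl14, at the interface with the small subunit, rose by 1.03 ± 0.21, Mrps21 by 0.98 ± 0.21 and Mrpl10, which anchors the stalk that recruits translation factors, by 0.95 ± 0.24, with edgeR adjusted p of 0.000208, 0.000273 and 0.00145. The ranges of polysome and total mRNA overlapped for each of these 6 when the 13 tumours were not paired.

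Among members called lower, Mrps22, a small subunit protein found in mitochondria and not in bacteria, had the largest fold. Mrps22 had 0.884, 2.95 and 8.16 CPM on polysomes (lowest, median and highest of 13), against 12.5, 23.5 and 59.0 CPM in total mRNA. Every polysome library lay below every total mRNA library, and the log2 fold was -2.87 ± 0.33 (edgeR quasi-likelihood, adjusted p = 7.47e-08). Mrpl3, a protein close to the peptidyl transferase centre, had 0.734, 13.3 and 40.4 CPM on polysomes, against 19.5, 59.7 and 78.5 CPM in total mRNA. Its ranges overlapped, but within tumours it was lower in 13 of 13, with a log2 fold of -2.40 ± 0.30 (edgeR adjusted p = 3.25e-07). Mrpl47 had 0.367, 5.39 and 10.6 CPM on polysomes, against 12.03, 17.9 and 37.1 CPM in total mRNA; these ranges did not overlap, and the log2 fold was -2.26 ± 0.32 (edgeR adjusted p = 1.79e-06). The remaining named members were Mrpl42 at -1.90 ± 0.29, Mrpl30 at -1.67 ± 0.28 and Mrpl50 at -1.55 ± 0.28, with edgeR adjusted p of 5.41e-06, 1.79e-05 and 4.42e-05. In all, 22 members had a log2 fold below -1, and 5 (Mrps22, Mrpl3, Mrpl47, Mrpl50 and Mrps33) were called lower and lower in 13 of 13 tumours.

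**Figure D2:**
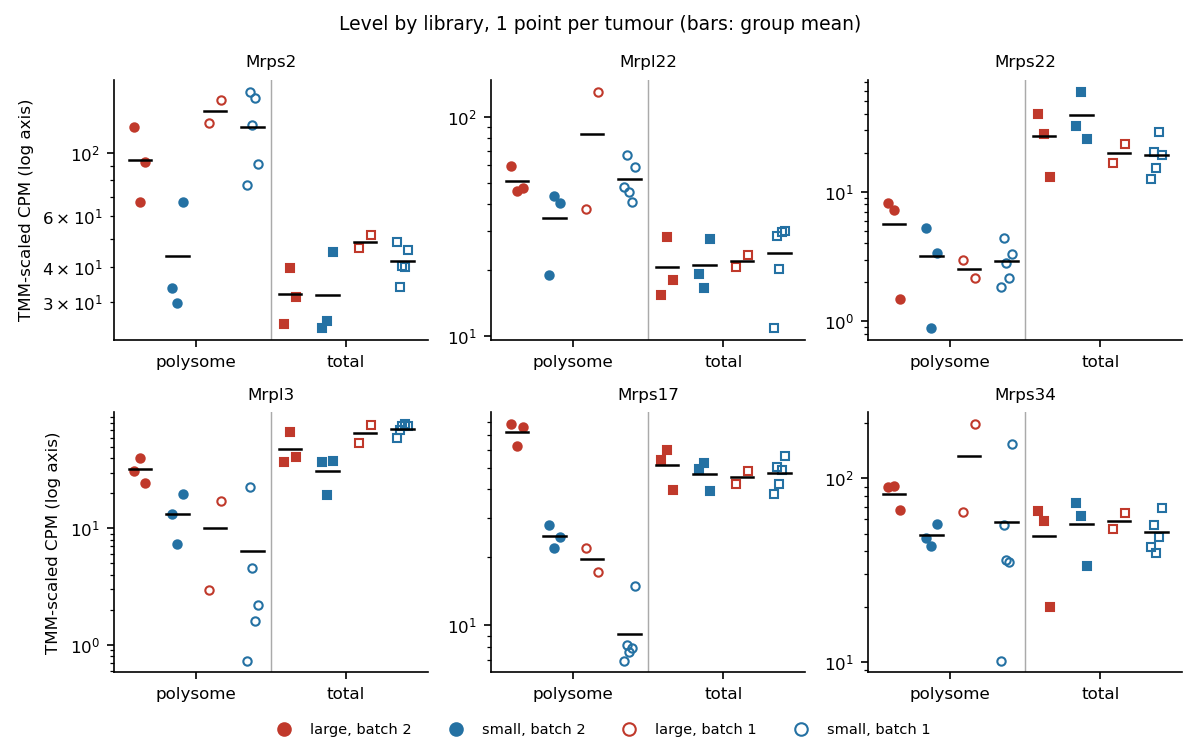
Level of 6 members by library in TMM-scaled CPM (log axis), with polysome libraries on the left of each panel and total mRNA on the right; points are tumours coloured by size, filled for batch 2 and open for batch 1, and bars are group means. Mrps2 and Mrpl22 lie higher on polysomes, Mrps22 and Mrpl3 lower, and the polysome levels of Mrps17 run from 62.6 to 77.9 CPM in large tumours of batch 2, against 22.001 to 27.9 CPM in small ones.

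The stalk and decoding proteins showed no common direction. Mrpl10 rose on polysomes (above), but its neighbour Mrpl11 had a log2 fold of -0.26 ± 0.21 and Mrpl12, which forms the flexible stalk and also binds the mitochondrial RNA polymerase, one of -0.09 ± 0.19, and neither was called. Mrps12, the protein of the decoding site, had a log2 fold of 0.07 ± 0.24 and was higher in 6 of 13 tumours. Mrps5, of bacterial descent, rose by 0.80 ± 0.21 (edgeR adjusted p = 0.00248), whereas Mrps7, in the head of the small subunit, fell by 1.22 ± 0.22 (edgeR adjusted p = 4.28e-05). In batch 2 alone neither was called, with Mrps5 at 0.32 ± 0.32 and Mrps7 at -0.82 ± 0.32. In batch 1 alone both were called, at 1.41 ± 0.29 and -1.58 ± 0.32. The paralogues of bacterial S18 differed among themselves in value: Mrps18c had a log2 fold of -1.35 ± 0.20 (called), Mrps18a one of -0.56 ± 0.23 (edgeR adjusted p = 0.0399, a call that was lost in 14 of 21 alternatives) and Mrps18b one of -0.24 ± 0.20 (not called). Mrps34, a mitochondria-specific protein, Mrpl28 and Mrpl44, an RNase III-like protein, had log2 folds of 0.36 ± 0.23, -0.08 ± 0.22 and 0.44 ± 0.29 and were not called.

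The polysome fold was set against length. Over 69 members the rank correlation of the polysome fold with coding length was -0.0588, against 0.0983 over 11063 genes tested. With exon length, which includes untranslated exon, it was -0.256 over the members, against 0.198 over those genes. By coding length, the median fold of the shortest, middle and longest 23 members was -0.42, -0.26 and -0.74. These correlations are across genes, which are not replicates. Members with the NRF1 letters in the promoter had a median log2 fold of -0.13 (4 called higher and 7 lower of 20) and those without one of -0.67 (5 and 22 of 41). With and without the ETS letters the medians were -0.21 (22 members) and -0.74 (39 members). With the YY1 letters the median was lower, at -0.71 (0 called higher and 5 lower of 8), against -0.42 without them (9 and 24 of 53). Among all genes tested 22.6% were called higher and 34.0% lower. Folds of all genes with and without each motif were not computed, so these splits are description only. The head-to-head pair had log2 folds of -1.38 ± 0.26 for Mrpl46, which was called, and -0.38 ± 0.21 for Mrps11, which was not.

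The other genes of the pathway were described from fixed lists. Their counts stand beside 22.6% of all genes tested called higher and 34.0% called lower. The lists are small, and the counts are description only. Proteins of the mitochondrial ribosome with other names gave 0 called higher and 4 lower of 5 tested, among them Ptcd3 (log2 fold -1.82 ± 0.30) and Dap3 (-1.34 ± 0.24), both small subunit proteins. Mitochondrial translation factors gave 1 higher and 6 lower of 10 tested; Tufm, the elongation factor Tu, rose by 1.15 ± 0.20 over both batches, while Mtrf1, a release factor, and Lrpprc, which stabilises mitochondrial mRNA, had log2 folds of -3.76 ± 0.74 and -2.49 ± 0.47. Tufm was at 0.35 ± 0.27 in batch 2 alone, where it was not called (edgeR adjusted p = 0.362), and at 1.95 ± 0.28 in batch 1 alone, a called difference of -1.65 ± 0.40 (edgeR adjusted p = 0.00553). Lrpprc was at -1.34 ± 0.70 in batch 2 alone, also not called, and at -3.41 ± 0.55 in batch 1 alone. Assembly factors gave 3 higher and 5 lower of 18, with the helicase Dhx30 at 1.36 ± 0.18 and Fastkd2 at -2.68 ± 0.33. Genes of mitochondrial transcription and biogenesis gave 2 higher (Pprc1 and Yy1) and 6 lower of 12, and import gave 3 higher and 9 lower of 16, with Hspa9, the motor chaperone, at -2.66 ± 0.22. Complex I subunits, whose mitochondrially encoded partners this ribosome makes, gave 7 higher and 14 lower of 32, with a median of -0.31.

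The split between polysome and total mRNA differed between batches. In batch 2 alone 10 members were called higher and 10 lower (edgeR), against 14% and 15.9% of all genes, and the median log2 fold was -0.15. In batch 1 alone 7 were called higher and 33 lower, against 21.3% and 27.9% of all genes, with a median of -0.70. The batch 2 counts rest on few tumours: 2 members were called higher without small replicate 7, 3 without large replicate 5, 4 without small replicate 6 and 6 without large replicate 4, and 6 were called lower without small replicate 6. The difference itself, batch 2 minus batch 1, was called above 0 for 14 members and below 0 for 1, against 10.5% and 6.95% of all genes; its median was 0.71 over the members and 0.26 over all genes. Of the cytosolic ribosomal proteins 70 of 74 were called above 0, with a median of 3.19. Across batches 48 members kept the sign of the fold and 21 did not, 17 of these being above 0 in batch 2 and below 0 in batch 1. Called lower in both batches alone were 8 members (Mrpl3, Mrpl35, Mrpl42, Mrpl46, Mrpl47, Mrps15, Mrps22 and Mrps33), and 4 were called higher in both (Mrpl4, Mrpl22, Mrps2 and Mrps21). Mrpl52 was called in opposite directions, at 0.87 ± 0.27 in batch 2 and -0.87 ± 0.28 in batch 1. The batch difference lay above 0 for 54 of 69 members and for 6993 of 12109 genes. Shares of all genes that kept their sign or were called in both batches were not computed. The member counts of these kinds are therefore description only.

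**Figure D3:**
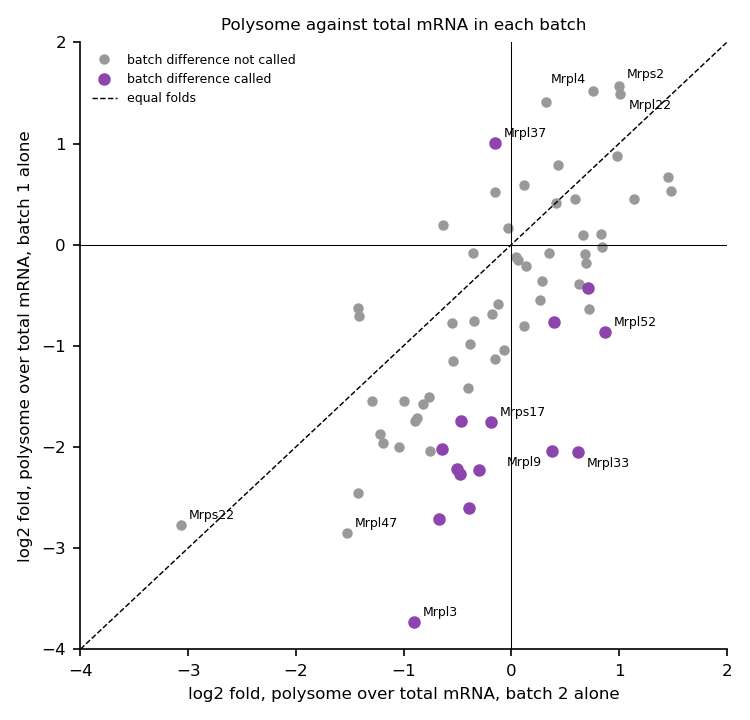
Log2 fold of polysome over total mRNA in batch 2 alone (x axis) against batch 1 alone (y axis), 1 point per member; purple points are the 15 members whose batch difference was called, and the dashed line marks equal folds. Of these 15, 14 lie below the line, and Mrpl37 lies above it.

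Mrpl3 had the batch difference with the lowest p. On polysomes Mrpl3 had 31.2, 40.4, 24.7, 13.3, 7.29 and 19.6 CPM in the 6 tumours of batch 2 (3 large, then 3 small), against 0.734, 2.95 and 22.8 CPM (lowest, median and highest of 7) in batch 1. Its log2 fold over total mRNA was -0.90 ± 0.29 in batch 2 and -3.73 ± 0.53 in batch 1, a difference of 2.96 ± 0.59 (edgeR adjusted p = 0.00107). The direction was the same in both batches and the size was not. Mrpl33, which has a short coding sequence (65 codons), had a log2 fold of 0.62 ± 0.35 in batch 2 and -2.05 ± 0.46 in batch 1. The difference of 2.82 ± 0.61 (edgeR adjusted p = 0.00207) was no longer called without small replicates 6 and 7 and large replicate 3 (1.92, edgeR adjusted p = 0.0964). Mrps17 and Mrpl15 had differences of 1.59 ± 0.37 and 1.90 ± 0.44. Mrpl37, a mitochondria-specific large subunit protein, went the other way, at -0.15 ± 0.31 in batch 2 and 1.00 ± 0.23 in batch 1 (difference -1.21 ± 0.39, edgeR adjusted p = 0.0342), and lost its call without those 3 tumours (edgeR adjusted p = 0.576) or without any of small replicates 1, 3, 4, 6 and 7 or large replicate 3. Without small replicate 7 alone 8 members in place of 14 were called above 0. Mrps5, Mrpl48 and Mrpl4 had differences of -0.99 ± 0.42, -0.97 ± 0.44 and -0.76 ± 0.36 and were not called. What differed in handling between batches is not given in the labels, and its part in these values was not tested.

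In total mRNA, large tumours were compared with small ones with batch as a term. No member was called by edgeR (0 of 69; 0% of 11671 genes), and 0 of 69 reached an unadjusted p below 0.05, against 1.46% of all genes higher and 3.15% lower in large tumours; DESeq2 called 0 members as well. The median log2 fold was -0.17 over the members and -0.03 over all genes, and 16 of 69 folds were above 0, against 46.8% of all genes. The members with the lowest p were Mrps31 at 0.77 ± 0.38, Mrpl9 at 1.00 ± 0.57 and Mrps28 at 0.75 ± 0.51 above 0, and Mrps21 at -0.47 ± 0.24, Mrps33 at -0.47 ± 0.26 and Mrps24 at -0.44 ± 0.26 below 0. In batch 1 alone Mrpl9, Mrps28 and Mrps24 were on the other side of 0, at -0.0006, -0.02 and 0.11, so their values rest on batch 2. There the total mRNA levels of Mrpl9 were 4.35, 36.4 and 10.3 CPM in large tumours and 2.33, 2.30 and 8.69 CPM in small tumours, and these overlapped. Large replicate 4 was highest, and without it the log2 fold was 0.32 for Mrpl9, 0.12 for Mrps28 and 0.44 for Mrps31.

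On polysomes the members lay mostly higher in large tumours, though none passed the adjusted test. With edgeR 0 of 69 were called (0% of 10933 genes), and the lowest adjusted p of a member was 0.113; DESeq2 called Mrps17 alone. At an unadjusted p below 0.05, 23 members were higher and 0 lower in large tumours, against 7.20% and 5.26% of all genes. The log2 fold was above 0 for 60 of 69 members, against 49.4% of all genes, and its median was 0.62 over the members and -0.01 over all genes. This was not particular to the members. Complex I subunits had 30 of 32 above 0 (median 0.67), with 12 higher and 0 lower at that p. Cytosolic ribosomal proteins had 65 of 73 above 0 (median 0.42), with 19 higher and 0 lower. The small subunit genes had a median of 0.71 and the large subunit genes one of 0.58. Fibroblast markers had 0 of 6 folds above 0 and a median of -2.28, and summed to 9.93 to 199 CPM on polysomes of large tumours, against 70.0 to 2480 CPM on those of small tumours. Macrophage markers had 6 of 8 above 0 and a median of 0.63, tumour epithelium markers 0 of 4 and a median of -0.84, and neutrophil markers 4 of 4 and a median of 1.29. The part of these cells in the members' values was not tested. Without small replicate 7, which holds the most fibroblast signal, 14 members were at an unadjusted p below 0.05 above 0 and the median was 0.52. The number was 12 without large replicate 3 or large replicate 4, 13 without small replicate 6, 15 without large replicate 5 and 9 without small replicates 6 and 7 and large replicate 3 together.

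Mrps17, a small subunit protein of bacterial descent, had the lowest p. On polysomes Mrps17 had 22.1, 17.2, 77.9, 62.6 and 75.6 CPM in large replicates 1 to 5, against 6.97, 11.6 and 27.9 CPM (lowest, median and highest of 8) in small tumours. In total mRNA it had 42.2, 48.2, 53.7, 60.0 and 39.7 CPM in large tumours, against 38.3, 48.9 and 56.3 CPM in small tumours, and these groups overlapped. Within each batch every large tumour lay above every small tumour on polysomes, the ranges being 62.6 to 77.9 against 22.001 to 27.9 CPM in batch 2 and 17.2 to 22.1 against 6.97 to 14.9 CPM in batch 1. The log2 fold on polysomes was 1.39 ± 0.30 (edgeR adjusted p = 0.113; 0.00508 with DESeq2, 0.0303 with edgeR without small replicate 5, and 0.0533 to 0.928 in the other alternatives). Mrpl17, a large subunit protein of bacterial descent, averaged 116 ± 39.0 CPM in large tumours (SD, n = 5) and 55.5 ± 22.9 CPM in small tumours (SD, n = 8). Mrps11 averaged 42.9 ± 13.2 CPM in large tumours and 17.6 ± 8.38 CPM in small tumours. The log2 folds of Mrpl17 and Mrps11 were 1.00 ± 0.30 and 1.22 ± 0.38, with edgeR adjusted p of 0.223 and 0.234. Below 0 were Mrpl1 at -0.92 ± 0.60, Mrps5 at -0.33 ± 0.29 and Mrpl48 at -0.19 ± 0.35, the last of which was 0.16 in batch 2 alone.

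The share of all polysome counts taken by the 69 members parted the sizes in batch 2 and not in batch 1. In batch 2 it was 0.522, 0.531 and 0.454% in large tumours, against 0.373, 0.372 and 0.361% in small tumours, without overlap. In batch 1 it was 0.253 and 0.268% in large tumours, against 0.182, 0.205, 0.153, 0.167 and 0.303% in small tumours, where small replicate 5 lay highest. Lars2, the gene of a mitochondrial leucyl-tRNA synthetase, took a large share of the same libraries that ran opposite. It was 6.01, 2.17 and 5.47% in large tumours of batch 2, against 10.33, 6.44 and 7.18% in small tumours, and 10.5 and 4.803% in large tumours of batch 1, against 25.9, 18.5, 19.4, 18.98 and 10.34% in small tumours, where small replicate 5 lay lowest. Its part in the members' values was not tested. In batch 2, 38 members had every large tumour above every small one on polysomes, against 12.9% of all genes, and in batch 1, 7 did, against 6.20%. Depth of polysome libraries overlapped between sizes in batch 2, at 14315435 to 28257436 counts in large tumours and 16431776 to 20284077 in small tumours. In batch 1 it did not, at 13045733 and 20699272 in large tumours and 7034173 to 10135223 in small tumours, and the part of depth in the batch 1 values was not tested. In batch 1 alone 2 members reached an unadjusted p below 0.05 above 0 (median 0.34), and in batch 2 alone 21 did (median 0.62). Shares of all genes at that p within each batch were not computed, so these 2 counts are description only.

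**Figure D4:**
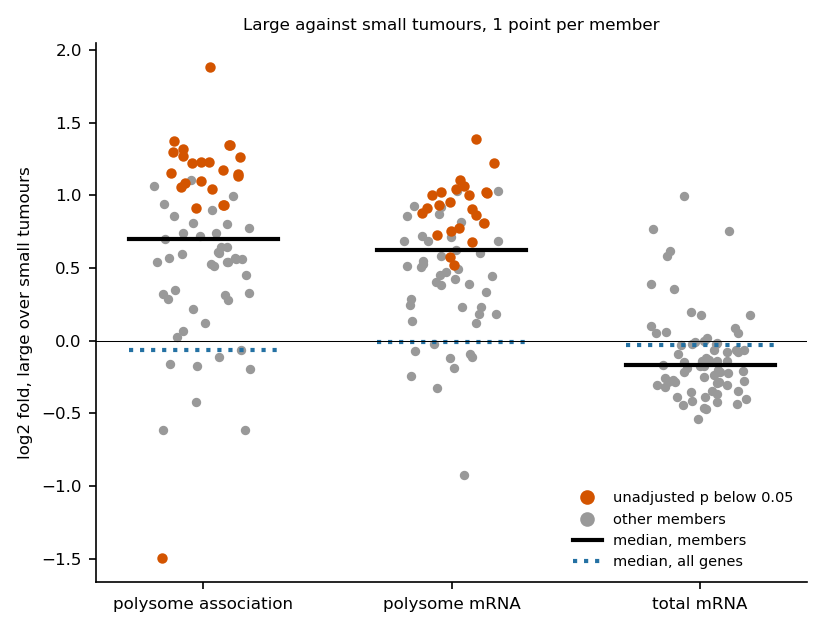
Log2 fold of large over small tumours for each member (1 point each, spread sideways for sight) in polysome association, polysome mRNA and total mRNA; orange points have an unadjusted p below 0.05, black bars are the medians of the members (0.70, 0.62 and -0.17) and dotted bars those of all genes. The members lie mostly above 0 in polysome association and polysome mRNA and mostly below 0 in total mRNA.

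Polysome association, the change on polysomes beyond that in total mRNA, was tested as the difference between large and small tumours in the polysome over total fold. With edgeR 0 of 69 members were called (0% of 12109 genes), and DESeq2 called Mrps17 alone. At an unadjusted p below 0.05, 22 members were higher and 1 lower in large tumours, against 6.17% and 5.27% of all genes. The log2 fold was above 0 for 60 members, against 47.4% of all genes, with a median of 0.70 over the members and -0.06 over all genes. Without small replicates 6 and 7 and large replicate 3, 14 members were at that p above 0 and the median was 0.64. Since this comparison uses the same polysome libraries as the preceding one, it is not separate evidence. Complex I subunits had a median of 0.76 with 30 of 32 above 0, cytosolic ribosomal proteins one of 0.33 with 57 of 74 above 0, assembly factors 0.22 with 11 of 18, import genes 0.43 with 11 of 16, and mitochondrial translation factors -0.54 with 4 of 10 above 0. None of these lists had a called gene by edgeR.

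By tumour, the median over the 69 members of the polysome minus total difference in log2 CPM was 0.24, 0.17 and 0.62 in the large tumours of batch 2, against -0.64, -0.70 and -0.35 in its small tumours. In batch 1 it was -0.32 and -0.39 in large tumours, against -0.94, -1.05, -1.08, -1.35 and -0.41 in small tumours. In each batch every large tumour lay above every small tumour, though in batch 1 small replicate 5 (-0.41) lay next to large replicate 2 (-0.39). The median over all genes lay between -0.44 and 0 in all 13 tumours. In batch 2, 26 members had every large tumour above every small one in this difference, against 8.67% of all genes, and in batch 1, 10 did, against 5.24%. Within batches the median fold of the members was 0.86 in batch 2 alone and 0.45 in batch 1 alone.

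**Figure D5:**
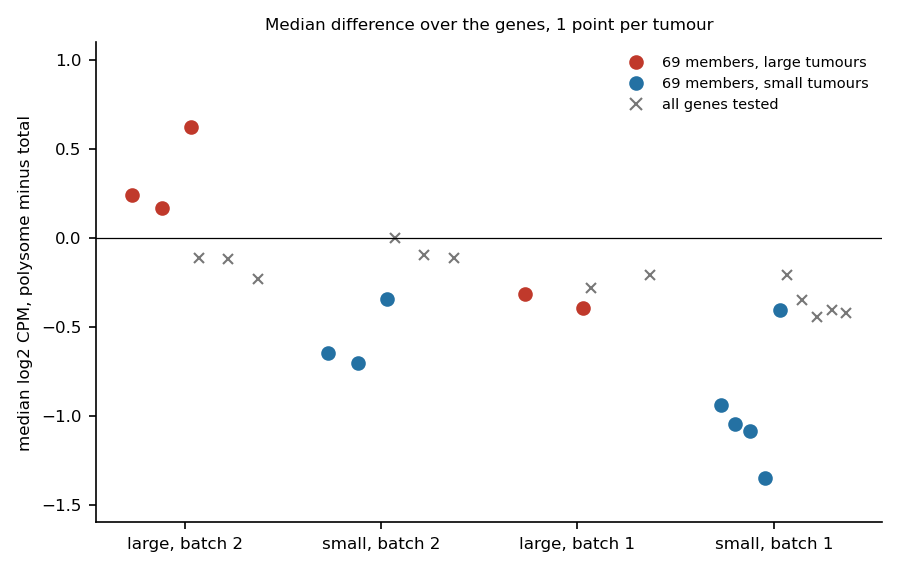
Median over genes of log2 CPM on polysomes minus log2 CPM in total mRNA (y axis), 1 circle per tumour for the 69 members and 1 cross per tumour for all genes tested, by size and batch (x axis). Large tumours lie at 0.17 to 0.62 in batch 2 and at -0.39 to -0.32 in batch 1, above the small tumours of the same batch in both.

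Mrps17 again had the lowest p. In log2 CPM its polysome minus total difference averaged 0.51 ± 0.43 in large tumours and -0.92 ± 0.30 in small tumours of batch 2 (SD, n = 3 each). In batch 1 it averaged -1.21 ± 0.39 in large tumours (SD, n = 2) and -2.42 ± 0.29 in small tumours (SD, n = 5). The groups did not overlap in either batch, and the fitted difference was 1.32 ± 0.38 (edgeR adjusted p = 0.300; 0.0194 with DESeq2 and 0.140 to 1.00 in the other alternatives). Mrps18c had a difference of 1.23 ± 0.40 and Mrps14 one of 1.23 ± 0.40, each with an edgeR adjusted p of 0.310. Mrps18a and Mrps18b, the other members of the S18 family, had 1.26 ± 0.47 and 1.06 ± 0.40. Mrps7, Mrps34 and Mrpl28 had 1.35 ± 0.45, 1.15 ± 0.48 and 1.27 ± 0.46. The rest of the panel of 15 ran lower. Mrpl10 and Mrpl44 lay below 0, at -0.17 ± 0.48 and -0.11 ± 0.59. Mrps22, Mrpl12, Mrps2 and Mrps12 had 0.52 ± 0.64, 0.57 ± 0.39, 0.57 ± 0.40 and 0.81 ± 0.49. Mrpl3 and Mrpl11 had 0.997 ± 0.588 and 1.096 ± 0.421, and Mrps5 is given below. The head-to-head pair Mrpl46 and Mrps11, which is outside the panel, had 1.37 ± 0.52 and 1.13 ± 0.44. None of these passed the adjusted test. Of the members below 0, Mrpl1, the protein of the mobile L1 stalk, had -1.49 ± 0.70 (edgeR adjusted p = 0.427), Mrps31 -0.62 ± 0.83 and Mrps5 -0.42 ± 0.43. The value of Mrps31 was -1.12 without large replicate 2 and -0.08 without large replicate 1. Mrpl1 was a low gene, with 2.63 to 6.43 CPM on polysomes of large tumours and 1.89 to 12.2 CPM on those of small tumours.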

How the data were processed

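The authors deposited whole-number read counts per gene for each of 26 libraries, in a column named counts per the file headers; they are whole numbers with unequal totals and were taken as not normalized. A second column deposited by the authors holds log2 values after TMM scaling per the file headers; within each library it differed from log2 CPM of the counts by a constant, and it was not used further. The submitters' processing notes name HISAT, HISAT2, limma and mm10. How reads were assigned to genes, with which annotation and strand setting, is not stated in the sources at hand, and SmartSeq2 does not mark strand, so overlapping genes on opposite strands cannot be told apart. Lengths and positions came from the GENCODE annotation in hand.

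Counts were fitted with edgeR 4.0.16 in R 4.3.3 (filterByExpr, TMM, robust quasi-likelihood test, Benjamini-Hochberg over all genes tested, threshold 0.05). All 26 libraries entered the fit of polysome against total mRNA, with tumour as a block and size class and batch acting on RNA source; 13 libraries entered each size fit, with batch as a term. CPM are TMM-scaled, and log2 CPM have a prior count of 1. The standard error is the fold divided by the root of F. Alternatives used limma 3.58.1 (voom) and DESeq2 1.42.0. The polysome against total term and the size term on polysomes were tried on simulated counts that held no tumour or batch effects. The trial did not cover the batch difference or the association by size, and its outcome is not used here. Both libraries of a tumour come from one sorted population per the labels' protocols. Their deviations from group means correlated at a median r of 0.249 (0.0372 to 0.635) within tumours. Between different tumours the median was -0.0167 (-0.552 to 0.3), and the ranges overlapped.

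Members, lists and naming rules were chosen with earlier results of these data known. Named were the 6 called members per direction with the largest polysome fold (mean of at least 10 CPM, same sign in both batches), the 4 per direction with the lowest p for the batch difference, the 3 per direction with the lowest p for each size comparison, the 3 highest and lowest levels, and a panel of 15. From the other lists, members were named among the 2 per direction with the lowest p. Mrpl46, Mrps11 as a pair, Mrpl52 and the members listed with the counts of 5 or 8 were named after their values were seen. The labels give separate tumours as replicates, so p-values measure the spread between tumours. Intervals of counting error were not computed, since tumours served as replicates. The number of columns belonging to other samples was 0.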

Additional observations from a re-analysis of the deposited data

Results flagged for a closer look

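Libraries are given here where 1 value stood far from the others of its group of 4 to 10 libraries (Dixon's criterion at the 95% level). This held for 16 of 158 groups looked at. The nominal rate of about 1 in 20 presumes independent values with a normal spread. Each group pools 2 batches and the genes share libraries, so the count of 16 cannot be set against that rate. Large replicate 2 lay far above the other large tumours on polysomes for Mrpl22 (129.7 CPM), Mrpl4 (406.1 CPM) and Mrps34 (197.7 CPM). Small replicate 5 lay far above the other small tumours on polysomes for Mrpl14 (191.7 CPM), Mrps28 (30.3 CPM), Mrps24 (165.4 CPM) and Mrps34 (154 CPM). In total mRNA, large replicate 3 lay far above the other large tumours for Mrpl30 (91.9 CPM), Mrpl48 (112.7 CPM), Mrpl52 (119.9 CPM), Mrps18b (106.6 CPM) and Mrpl12 (234.2 CPM), and large replicate 4 for Mrps5 (31.4 CPM). Small replicates 6 and 7, whose total mRNA also held little Lars2, were the highest small tumours for Mrpl48 (86.0 and 76.6 CPM), Mrps18b (86.4 and 114.5 CPM) and Mrpl12 (207.2 and 172.2 CPM). For Mrpl30 (66.2 and 77.6 CPM) and Mrpl52 (100.4 and 98.6 CPM) another small tumour lay above both. Small replicate 7 lay far above the other small tumours in total mRNA for the summed share of the members (0.567%), Mrps22 (59.0 CPM) and Mrps7 (306.7 CPM); it is also the library pair with the most fibroblast signal.

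The members with a called difference between batches in the polysome over total fold, batch 2 minus batch 1, were, among those described, Mrpl3 (2.96), Mrpl33 (2.82), Mrpl9 (2.79), Mrpl1 (2.06), Mrpl30 (1.95), Mrpl15 (1.90), Mrpl52 (1.67), Mrps17 (1.59), Mrps18c (1.38), Mrps14 (1.29), Mrpl11 (1.29) and Mrpl37 (-1.21), all on the log2 scale and by edgeR's quasi-likelihood test. Handling, depth and time of the batches cannot be told apart here.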

How the results depend on the processing

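Of the 10 members called higher on polysomes 8, and of the 31 called lower 22, kept their call in all 21 alternatives. Without the block for tumour (the pairing of libraries), 9 members were called higher and 30 lower on polysomes (median -0.34), 11 above and 1 below 0 for the batch difference (median 0.49), and 15 reached an unadjusted p below 0.05 for association with size (median 0.61). RLE scaling moved the median of all genes for the batch difference from 0.26 to 0.15, and that of the members to 0.61.

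DESeq2 called 1 member in polysome mRNA and 1 in association by size, put 1 member of total mRNA at an unadjusted p below 0.05 above 0 and called 3 members below 0 for the batch difference. With log2 weight in place of size class, 1 member of total mRNA reached that p. Above 0 in polysome mRNA, 15 did with upper-quartile scaling and 2 in batch 1 alone; for association 6 did in batch 1 alone. Without small replicates 6 and 7 and large replicate 3, 9 did in polysome mRNA and 14 for association; 8 members were called above and 0 below 0 for the batch difference, and 5 higher and 5 lower in batch 2 alone. Mrps34 was then called higher on polysomes (0.67, edgeR adjusted p = 0.0389), and Mrps18b, Mrpl12 and Mrpl28 were at 0.0508, 0.23 and 0.40. By size, Mrpl9, Mrps28 and Mrps24 in total mRNA of batch 1 alone were at -0.0006, -0.0152 and 0.11, and Mrpl48 in polysome mRNA of batch 2 alone at 0.16.

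Leaving out 1 tumour at a time, 8 to 12 members were called higher and 29 to 32 lower on polysomes; 2 to 11 higher (2 without small replicate 7, 3 without large replicate 5, 4 without small replicate 6, 6 without large replicate 4) and 6 to 11 lower (6 without small replicate 6) in batch 2 alone, whose median ran from -0.17 to 0.0421 (above 0 without small replicate 6); and 8 to 16 above and 0 to 1 below 0 for the batch difference (8 without small replicate 7). In polysome mRNA 0 to 1 were called by size (1 without small replicate 5), and 12 to 34 reached an unadjusted p below 0.05 above 0 (12 without large replicate 3 or 4, 13 without small replicate 6, 14 without small replicate 7 and 15 without large replicate 5). For association 19 to 28 did, and in total mRNA 0 to 1. Mrpl28 ran from -0.20 to 0.14, Mrps12 from -0.0360 to 0.24, Mrps18b from -0.3320 to -0.0995 and Mrpl12 from -0.15 to 0.10 on polysomes, and Mrpl48 from -0.42 to 0.0449 by size in polysome mRNA. The cause of these changes was not tested. Depth limits low members on polysomes most.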
